A study of Caenorhabditis elegans with 25 samples.

Results

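The FBXB and FBXC genes are F-box genes that the nematode Caenorhabditis elegans carries in large numbers. Members were the fbxb and fbxc genes with at least 10 counts in at least 5 of 25 RNA-seq libraries. Of 154 fbxb and fbxc genes in a table of 42532 genes, 123 were members, 93 of 106 FBXB genes and 30 of 48 FBXC genes. The other 31 genes, 13 FBXB and 18 FBXC, had at most 18 counts in any library, and 12 of them had 0 counts throughout. The member nearest the limit, fbxb-56, had 10 counts in 6 libraries, and fbxb-115 and fbxc-53 just outside it had them in 3.

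The RNA came from whole day 1 adults, 500 to 600 per sample, of 5 genotypes with 5 replicates each, in a study of the neuropeptide gene flp-17 and the gene of its receptor, egl-6. N2 was the wild-type background. The flp-17(lof) group was strain AEF243 with flp-17(n4894)IV, and the egl-6(lof) group was strain AEF236 with egl-6(n4537)X. The flp-17oe group, strain AEF148, carried the array ssrEx1193, which holds flp-17p::flp-17::GFP (FLP-17 fused to GFP under its own promoter) and, as a visible marker, myo-3p:mCherry, expressed from a muscle promoter. The flp-17oe egl-6(lof) group, strain AEF237, carried that array with egl-6(n4537)X and is called the double strain below. Strains other than N2 had been outcrossed 6 times. The array is extrachromosomal and is not passed to every animal, so array animals were sorted by fluorescence 24 h before collection while the other animals were only washed and replated. Array and sorting therefore cannot be told apart. Replicate 1 of every genotype formed batch 1 and replicates 2 to 5 formed batch 2. The labels do not say that replicates were separate cultures, so p-values measure the spread between these samples.

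An F-box protein is the exchangeable part of an SCF ubiquitin ligase. Its F-box binds a SKP1-like protein (the SKR proteins in worms), which joins it to the cullin CUL-1 and the RING protein RBX-1, and the rest of the protein is thought to choose the substrate. Nematode F-box genes multiplied in long runs of neighbouring copies, and FBXB and FBXC are named for the F-box together with a further, family-specific domain. For most of these genes no substrate is known, so their roles below are given by family.

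Library totals ran from 25164923 to 99717657 counts. The targeted genes followed the labels: flp-17 was at 0.310 ± 0.0607 CPM (counts scaled to a common library size, mean ± SD, n = 5) in flp-17(lof) against 4.62 ± 0.459 in N2 and 188 ± 27 in flp-17oe, and egl-6 was at 2.81 ± 0.496 CPM in egl-6(lof) against 6.03 ± 0.629 in N2. Replicate 1 of flp-17(lof) stood apart, with the lowest total and a TMM normalization factor of 0.740 where every other library had 0.981 or more.

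The 2 families differed most in level. Scaled to exon length, FBXB members had a median of 0.378 CPM per kb over the 25 libraries and FBXC members 0.904. The highest FBXC members were fbxc-50 at 46.9 CPM per kb, fbxc-44 at 41 and fbxc-32 at 19.0, while the highest FBXB members were fbxb-7 at 7.76, fbxb-67 at 4.09 and fbxb-103 at 1.28. Only 10 FBXB members but 16 FBXC members reached a mean of 1 CPM, and 6 FBXC members and 0 FBXB members reached 10 CPM. FBXB members thus rested on few reads: the median over members of their median count was 22, against 74 for FBXC, and 65 of 93 had a median count under 30. Nearly all were found in every genotype, with 86 FBXB and 29 FBXC members reaching 10 counts in some library of all 5.

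In the Ensembl annotation of WBcel235, the assembly also called ce11, the first 5 Mb of chromosome II held 53 FBXB and 26 FBXC members. The remaining FBXB members lay on chromosomes I (9), III (8), IV (5), V (14), X (1) and further along II. Of the other FBXC members, 3 lay on IV and fbxc-23 lay further along II. A member lay directly beside another for 47 FBXB and 13 FBXC genes. The FBXB members fbxb-32 and fbxb-36 had no Ensembl position and are listed by RefSeq as pseudogenes on II. Another protein-coding gene overlapped 12 FBXB and 4 FBXC members. How reads of near-identical or overlapping genes were assigned is unknown here, so their values are uncertain. Among them, fbxb-18 and fbxb-19 overlap each other on the same strand, and fbxb-1 and fbxb-116 overlap str-81.

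Across the 5 genotypes both families had the same lowest and highest group. A family score, the mean over members of log2 CPM relative to each gene's own mean, described this. For FBXB it was 0.131, 0.226, -0.068, -0.156 and -0.325 in N2 replicates 1 to 5, and -0.618, -0.082, -0.424, -0.648 and -0.511 in flp-17(lof). It was 0.278, 0.115, 0.183, 0.092 and 0.280 in egl-6(lof), -0.657, -0.070, -0.195, 0.035 and -0.093 in flp-17oe, and 0.272, 0.516, 0.611, 0.553 and 0.557 in the double strain. The double strain libraries were above all N2, flp-17(lof) and flp-17oe libraries and overlapped egl-6(lof) only through replicate 1, while N2, flp-17oe and flp-17(lof) overlapped. The means ± SD (n = 5) were -0.46 ± 0.23 in flp-17(lof), -0.20 ± 0.27 in flp-17oe, -0.04 ± 0.22 in N2, 0.19 ± 0.09 in egl-6(lof) and 0.50 ± 0.13 in the double strain.

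The FBXC score was 0.044, 0.154, -0.098, -0.153 and -0.345 in N2 and -0.371, -0.147, -0.306, -0.413 and -0.502 in flp-17(lof). It was -0.013, 0.094, 0.107, 0.113 and 0.178 in egl-6(lof), -0.534, 0.235, -0.196, 0.10 and 0.004 in flp-17oe, and it was 0.333, 0.334, 0.536, 0.445 and 0.401 in the double strain. Here every double strain library was above every library of the other 4 genotypes. In both families replicate 1 of flp-17oe was the lowest of its group. It is the batch 1 library, and without it the flp-17oe mean was -0.08 ± 0.09 for FBXB and 0.04 ± 0.18 for FBXC.

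**Figure D1:**
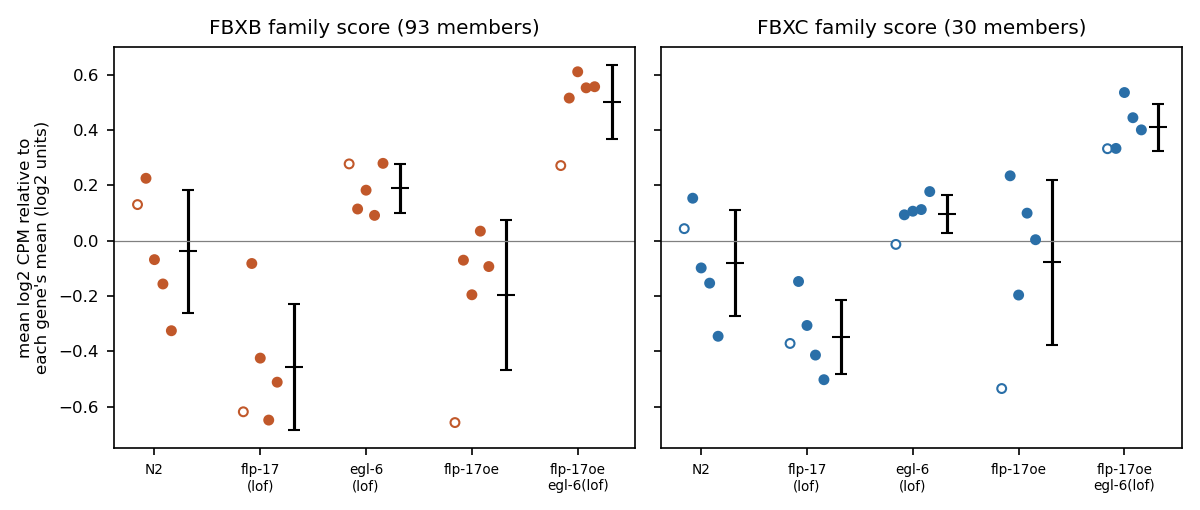
Family score in each library by genotype, for FBXB on the left and FBXC on the right. The y axis is mean log2 CPM over members relative to each gene's mean. Open points are batch 1, filled points are batch 2, and bars are the mean ± SD of 5 libraries. The double strain libraries are the highest group in both panels and flp-17(lof) the lowest on average.

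Gene by gene, the same groups were most often the highest and the lowest. Over all members, the highest genotype mean was in the double strain for 80 of 93 FBXB and 24 of 30 FBXC genes, and the lowest in flp-17(lof) for 69 and 17. Highest and lowest genotypes were not counted over all genes, so no share stands beside the numbers here or among members that passed. In edgeR's quasi-likelihood test of any difference among the 5 genotypes, with Benjamini-Hochberg adjustment over 14634 genes, 44 of 92 FBXB members tested and 16 of 30 FBXC members passed an adjusted p of 0.05, against 21.0% of all genes. Among genes under 1 CPM these were 38 of 82 FBXB and 10 of 14 FBXC members, against 30.7% of all such genes, and among genes at 1 CPM or more 6 of 10 and 6 of 16, against 17.6%. Of those that passed, 42 FBXB and 15 FBXC members were highest in the double strain, and 35 and 14 were lowest in flp-17(lof). Their highest genotype mean was from 1.37 times the lowest in fbxc-40 to 4.40 times in fbxb-101. The ratio of fbxb-101 rests on 0 to 15 reads per library. It reached 10 counts in no N2 or flp-17(lof) library and met the member rule only through the other 3 genotypes. The exceptions at the top were fbxb-42, highest in egl-6(lof), and fbxb-97 and fbxc-23, highest in flp-17oe. Without replicate 3, 4 or 5 of every genotype these counts were 21 to 25 for FBXB and 5 to 7 for FBXC.

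Loss of egl-6 in animals carrying the array gave the most FBXB calls of the 5 pairwise comparisons, though not the most FBXC calls. Comparing the double strain with flp-17oe, 17 FBXB members rose and 0 fell, and 2 FBXC members rose and 0 fell, where 1.39% of all genes changed, 1.18% rose and 0.219% fell. The FBXB median log2 change was 0.753, or 1.69 times, with 90 of 92 members higher, against 50.4% of all genes. The FBXC median was 0.518, or 1.43 times, with 28 of 30 higher, and the median over all genes was 0.002. At an unadjusted p under 0.05, 71 FBXB and 15 FBXC members were higher and 0 lower, against 6.84% of all genes higher and 3.48% lower. The 5 libraries of one group lay wholly above those of the other for 43 FBXB and 8 FBXC members, against 1.77% of all genes. The samples are bulk RNA of whole animals, so fewer cells of a type and less RNA per cell cannot be told apart here or in the comparisons that follow.

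The largest fitted increase among FBXB members was that of fbxb-19, on the minus strand of chromosome II at 1688181 to 1689181, with 3 to 27 counts per library. Its level was 0.0461, 0.128, 0.113, 0.153 and 0.208 CPM in flp-17oe and 0.401, 0.525, 0.630, 0.439 and 0.368 CPM in the double strain. The lowest library of the second group was above the highest of the first, and the log2 change was 1.84 (SE 0.312, adjusted p = 0.0033, edgeR). The call was lost in 1 of 30 fits that left out a library or a replicate number, at an adjusted p of 0.094 without replicate 3 of every genotype.

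fbxb-66, on chromosome I at 13423997 to 13425148, was at 0.231, 0.277, 0.363, 0.416 and 0.371 CPM in flp-17oe and at 0.609, 0.798, 0.577, 0.878 and 0.829 CPM in the double strain. These groups did not overlap either, and the log2 change was 1.16 (SE 0.219, adjusted p = 0.00777, edgeR). fbxb-41, among the more abundant of the changed members with a median of 57 counts, was at 0.830, 1.38, 0.839, 0.765 and 0.816 CPM in flp-17oe and at 1.47, 1.71, 1.5, 1.74 and 1.75 CPM in the double strain. Replicate 2 of flp-17oe was the highest of its group and still lay under every library of the other, for a log2 change of 0.82 (SE 0.157, adjusted p = 0.00808, edgeR). The fbxb-66 call was kept in 26 of the 30 fits and the fbxb-41 call in 27, with losses at adjusted p of up to 0.0666 and 0.145 only where a replicate number was left out of every genotype.

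The other FBXB members that rose were fbxb-1, fbxb-13, fbxb-16, fbxb-18, fbxb-26, fbxb-35, fbxb-36, fbxb-48, fbxb-54, fbxb-71, fbxb-75, fbxb-98, fbxb-104 and fbxb-116. With the 3 above, their group means ran from 0.118 to 0.982 CPM in flp-17oe and from 0.260 to 1.74 CPM in the double strain, with log2 changes of 0.82 to 1.84 and adjusted p of 0.0033 to 0.047. Among them, fbxb-16, with 1 to 19 counts per library, met the member rule only with its double strain libraries counted. None of the 17 overlapped between groups, which is no separate support because they were called from the same libraries. The count depended on single libraries. It was 5 without flp-17oe replicate 1 or 3, 11 without its replicate 4 and 9 without its replicate 5. It was 9, 5, 10 and 6 without double strain replicates 2, 3, 4 and 5, and 0, 1 and 1 without replicates 3, 4 and 5 of every genotype. The median log2 change moved only between 0.589 and 0.824 over the same 30 fits.

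Of the FBXC members, fbxc-51 rose from 2.29, 7.19, 3.58, 5.90 and 4.85 CPM in flp-17oe to 6.94, 7.70, 10.6, 9.62 and 12.7 CPM in the double strain. Its groups overlapped through replicate 2 of flp-17oe, and the log2 change was 1.01 (SE 0.222, adjusted p = 0.0189, edgeR). fbxc-25 rose from 0.215, 1.09, 0.589, 0.787 and 0.682 CPM to 1.29, 1.19, 1.73, 1.39 and 1.71 CPM, without overlap, for a log2 change of 1.17 (SE 0.280, adjusted p = 0.0341). The FBXC count of 2 was 4 with the replicate number as a block in place of batch, where fbxc-21 and fbxc-22 were added, and 7 by DESeq2. It was 6 without flp-17(lof) replicate 1 and 5 without flp-17oe replicate 2. It was 0 without flp-17oe replicate 1 or 3 or without double strain replicate 3 or 5, and 1 without flp-17oe replicate 4 or 5 or double strain replicate 1.

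Among the marker lists for other cell types and stages, early embryonic genes had the most calls in this comparison. Of 43 early embryonic zygotic genes, which young embryos inside the adults transcribe, 39 were in the table and 31 were tested, 7 rose and 0 fell, and their median log2 change was 0.600. Their summed level was 80.7 to 105.6 CPM in flp-17oe and 113.4 to 141.5 CPM in the double strain, with sdz-25 at 0 in every library. Over genotypes their score had the same lowest and highest group as the 2 families, at -0.27 in flp-17(lof), -0.10 in flp-17oe, -0.06 in N2, 0.06 in egl-6(lof) and 0.38 in the double strain. Their part in the change of the FBXB and FBXC genes was not tested. Of 25 oocyte and eggshell genes 0 passed this edgeR comparison, with 0 at an unadjusted p under 0.05, and their median log2 change was -0.056.

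**Figure D2:**
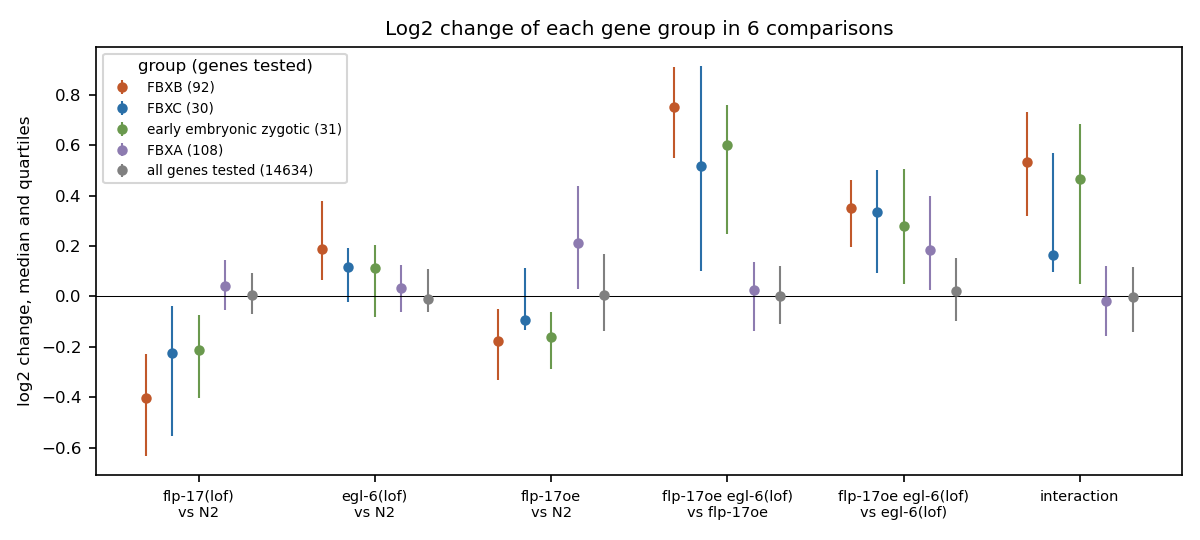
Median log2 change, with bars for the quartiles, of FBXB and FBXC members, early zygotic genes, FBXA genes and all genes tested in 5 pairwise comparisons and the interaction. FBXB and FBXC lie below 0 in flp-17(lof) against N2 and reach 0.753 and 0.518 in the double strain against flp-17oe, where the median over all genes is 0.002.

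The FBXC family was not uniform, and its members divided by level. Among members with a mean under 1 CPM the median log2 change on loss of egl-6 in array animals was 0.754 for 82 FBXB and 0.910 for 14 FBXC genes, against 0.027 for all genes at that level. Among members at 1 CPM or more it was 0.541 for 10 FBXB and 0.134 for 16 FBXC genes, against -0.002 for all such genes. In flp-17(lof) against N2 the low-level medians were -0.437 for FBXB and -0.545 for FBXC, and the higher-level medians -0.168 and -0.053.

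The 6 FBXC members above 10 CPM, fbxc-32, fbxc-44, fbxc-45, fbxc-47, fbxc-50 and fbxc-52, passed none of the 5 pairwise edgeR comparisons. Their 30 log2 changes ran from -0.226 to 0.125 with SEs of 0.0548 to 0.141. The lowest adjusted p was 0.122, 3 of the 30 had an unadjusted p under 0.05, and the 95% intervals lay between -0.422 and 0.316. The most abundant, fbxc-50, was at 53.1, 61.8, 51.6, 52.8 and 56.5 CPM in N2 and at 71.2, 50.3, 51.7, 52.6 and 59.5 CPM in flp-17(lof). It was at 44.0, 53.7, 46.0, 46.4 and 45.7 CPM in flp-17oe and at 52.7, 49.02, 54.8, 45.2 and 42.98 CPM in the double strain, with overlap between groups. Summed FBXC level was 206 CPM on average in N2, 204 in flp-17(lof) and 219 in the double strain, whereas summed FBXB level was 51.7, 43.1 and 75.2 CPM.

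**Figure D3:**
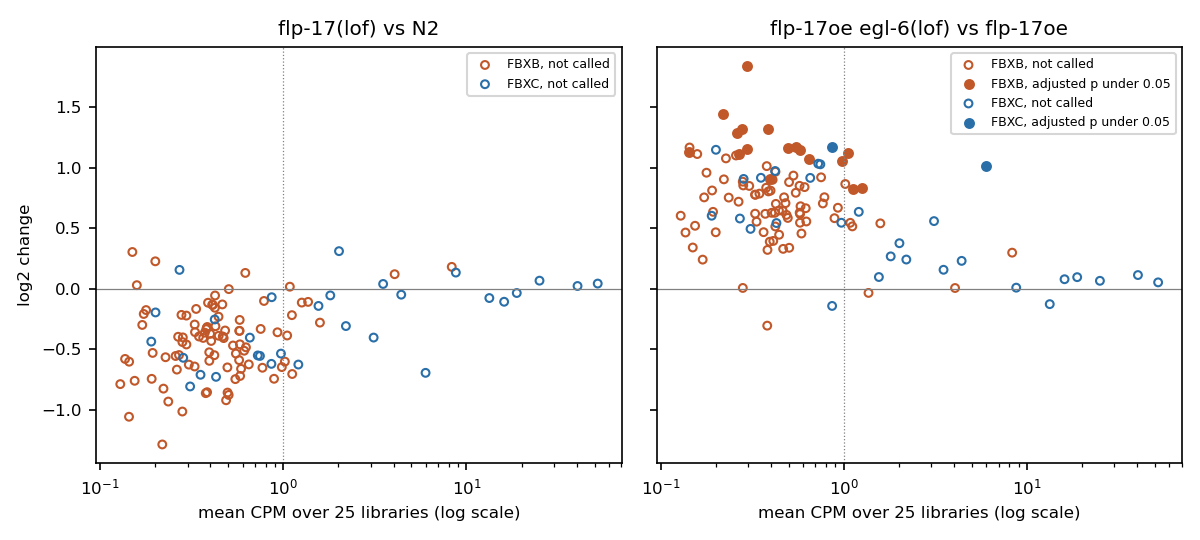
Log2 change of each tested member against its mean level (CPM over 25 libraries, log scale), for flp-17(lof) against N2 and for the double strain against flp-17oe. Filled points passed an adjusted p of 0.05 and the dotted line marks 1 CPM. Members of both families under 1 CPM lie mostly below 0 in the first panel and above it in the second, and the FBXC members above 10 CPM lie near it.

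The change was not limited to the large run of genes on chromosome II. On loss of egl-6 in array animals the FBXB median log2 change was 0.785 for 53 members in the first 5 Mb of II, 0.589 for 8 on I, 0.485 for 8 on III, 0.849 for 5 on IV and 0.776 for 14 on V. Other genes on the same stretches had medians of -0.007 to 0.053. FBXC members had a median of 0.551 for 26 on that part of II and 0.094 for 3 on IV, among them the abundant fbxc-47.

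Loss of flp-17 alone gave lower values with no member past the threshold. In flp-17(lof) against N2 edgeR and DESeq2 each called 0 FBXB and 0 FBXC members, where 0.0752% of all genes changed. The FBXB median log2 change was -0.405 (0.755 times) with 85 of 92 members lower, and the FBXC median was -0.226 with 23 of 30 lower, against 48.1% of all genes. At an unadjusted p under 0.05 edgeR had 23 FBXB members lower and 0 higher, and 7 FBXC members lower and 1 higher, against 1.52% of all genes lower and 1.14% higher, and DESeq2 had 22 and 10 in either direction. All flp-17(lof) libraries lay under all N2 libraries for 7 FBXB and 2 FBXC members, against 0.335% of all genes. Without flp-17oe replicate 2, a library of neither group, edgeR called fbxb-41. The smallest p was that of fbxb-24, which overlaps faah-4 on III, at 1.19, 1.09, 0.897, 1.12 and 0.921 CPM in N2 and 0.376, 0.663, 0.727, 0.689 and 0.579 CPM in flp-17(lof). Its groups did not overlap, and the log2 change was -0.75 (SE 0.168, adjusted p = 0.194). Among FBXC members fbxc-19 had the smallest p, at a log2 change of -0.81 (SE 0.228, adjusted p = 0.9995). Without flp-17(lof) replicate 1, the library that stood apart, the medians were -0.421 and -0.242. The FBXC median was -0.087 without N2 replicate 1 and -0.374 without N2 replicate 5. The early zygotic list had a median of -0.213 here with 26 of 31 genes lower and 0 past the threshold, and its part was not tested.

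Loss of egl-6 alone raised one member. In egl-6(lof) against N2, where 0.485% of all genes changed and 0.424% rose, fbxc-43 rose and edgeR called 0 FBXB members. At an unadjusted p under 0.05 it had 7 FBXB members higher and 1 lower, against 6.68% and 0.984% of all genes, and DESeq2 called 0. Without N2 replicate 1 edgeR called fbxb-88 and fbxb-97. The smallest FBXB p was that of fbxb-97, at a log2 change of -0.39 (SE 0.117, adjusted p = 0.119). fbxc-43 lies on II at 4234903 to 4235996, 507 bases from the abundant fbxc-44. It was at 1.16, 1.70, 1.26, 1.04 and 1.06 CPM in N2 and at 1.99, 1.87, 2.47, 2.21 and 2.22 CPM in egl-6(lof). The groups did not overlap, and the log2 change was 0.78 (SE 0.125, adjusted p = 0.00161). The call was lost without replicate 3, 4 or 5 of every genotype, at adjusted p of 0.118, 0.0892 and 0.0945. The neighbour fbxc-44 had a log2 change of 0.13 (SE 0.0753, adjusted p = 0.909). The family medians were 0.189 for FBXB, with 76 of 92 higher, and 0.116 for FBXC, with 21 of 30 higher, against 46.6% of all genes. FBXB members under 1 CPM had a median of 0.217, and all genes at that level had 0.158. Sperm genes also moved: 6 of 38 tested rose with a median log2 change of 2.26, their summed level was 18.7 to 244 CPM in N2 and 107 to 241 CPM in egl-6(lof), and their part was not tested. The batches differed: the sperm score of the batch 1 library was 2.41 in N2 and 1.19 in egl-6(lof), and the batch 2 means were -0.65 and 2.06.

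With the array and egl-6 intact, 3 of 92 FBXB and 2 of 30 FBXC members were called, shares under that of all genes. In flp-17oe against N2, where 6.96% of all genes changed, 4.78% higher and 2.18% lower, fbxb-7 and fbxc-43 rose and fbxb-19, fbxb-24 and fbxc-22 fell. The family medians were -0.179 for FBXB and -0.094 for FBXC, and neither was stable. Without flp-17oe replicate 1 they were -0.057 and 0.054, without N2 replicate 1 they were -0.102 and -0.009, and without N2 replicate 2 they were -0.082 and 0.021. The FBXC median was -0.015 and -0.048 without flp-17oe replicates 3 and 5. fbxc-43 was at 2.21, 2.47, 2.18, 2.34 and 2.00 CPM in flp-17oe, above every N2 library, for a log2 change of 0.84 (SE 0.126, adjusted p = 0.00014). This call held in all 30 fits that left out libraries. fbxb-7, the most abundant FBXB member, was at 6.64, 6.89, 6.19, 6.15 and 7.28 CPM in N2 and at 8.32, 8.60, 8.77, 9.91 and 9.96 CPM in flp-17oe. These groups did not overlap, and the log2 change was 0.46 (SE 0.127, adjusted p = 0.0296), with adjusted p of 0.0528 to 0.0828 without N2 replicate 1, 3 or 4 or flp-17oe replicate 3, 4 or 5. Counting also the fits without a replicate number of every genotype, the fbxb-7 call was kept in 20 of 30, with edgeR adjusted p of up to 0.178.

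The neighbours fbxb-19 and fbxc-22, 516 bases apart on II, both fell with the array. fbxb-19 was at 0.356, 0.289, 0.337, 0.323 and 0.226 CPM in N2, above each flp-17oe value given above, with a log2 change of -1.22 (SE 0.323, adjusted p = 0.0218). fbxc-22 was at 0.474, 0.577, 0.583, 0.494 and 0.278 CPM in N2 and 0.215, 0.426, 0.249, 0.284 and 0.133 CPM in flp-17oe. Its groups overlapped, and the log2 change was -0.90 (SE 0.258, adjusted p = 0.0344). fbxb-24 fell by 0.55 on the log2 scale (SE 0.165, adjusted p = 0.0457), from 1.04 ± 0.128 to 0.714 ± 0.148 CPM. The fbxb-19 call was lost without N2 replicate 1 or 4 or flp-17oe replicate 1, at adjusted p of 0.051 to 0.0777. It was kept in 23 of the 30 fits. The fbxc-22 call was lost without N2 replicate 2, 3 or 4 or flp-17oe replicate 1, 3 or 5, at adjusted p of 0.0634 to 0.115, and was kept in 20 of the 30 fits. Over these fits and the alternatives, which include DESeq2, adjusted p reached 0.112 for fbxb-19 and 0.162 for fbxc-22. The fbxb-24 call was lost in 23 of the 30 fits, at up to 0.177. The FBXB count of 3 was 0 without N2 replicate 1 or 4 and 1 without flp-17oe replicate 1, 3 or 5, and the FBXC count of 2 was 1 without the libraries named for fbxc-22 other than flp-17oe replicate 1. Leaving out replicate 2 of every genotype also gave 0 for FBXB, and leaving out replicate 3 of every genotype gave 1 for FBXC.

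**Figure D4:**
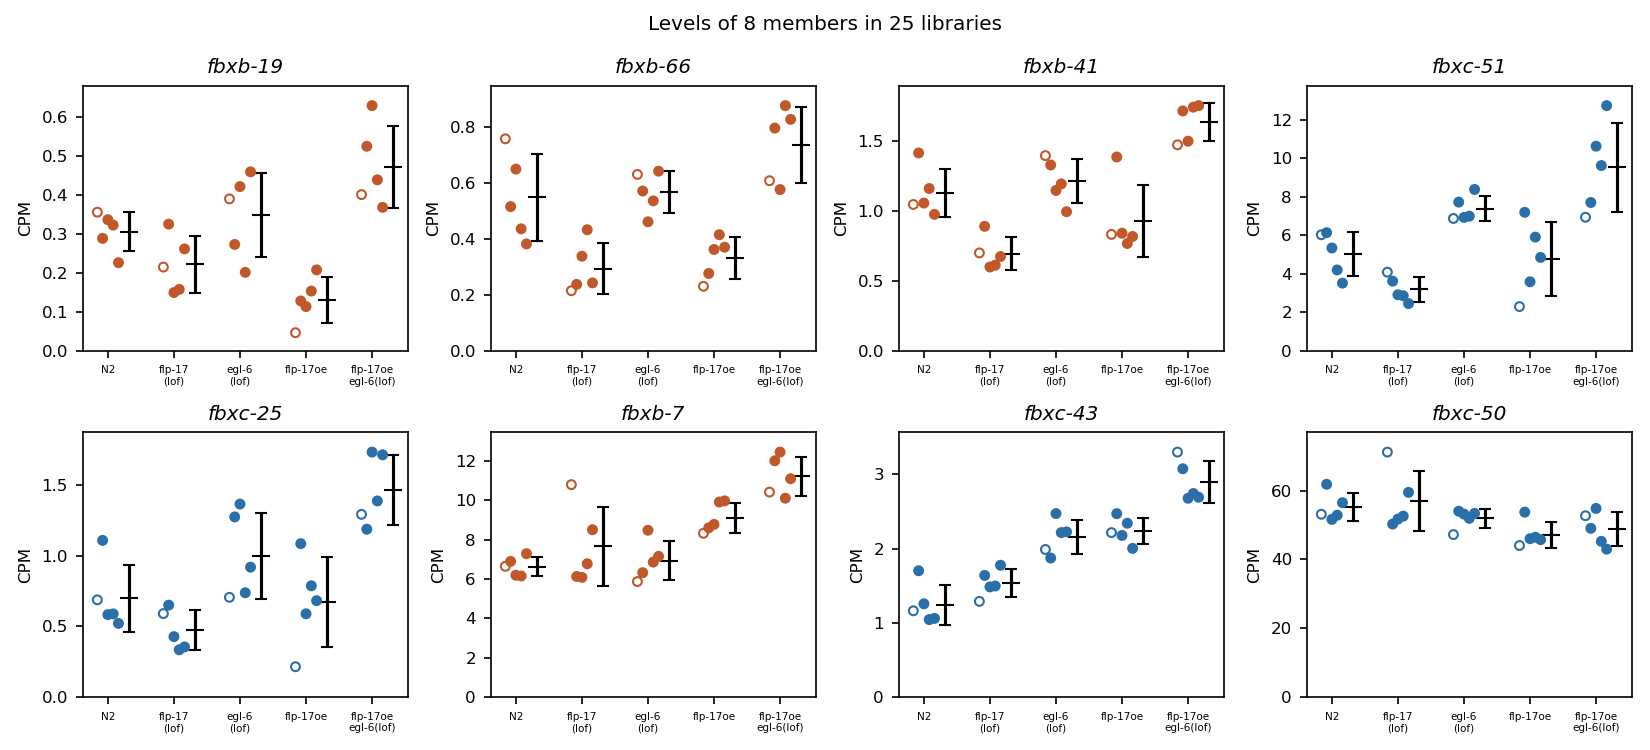
CPM of 8 members in the 25 libraries by genotype; open points are batch 1, filled points batch 2, and bars the mean ± SD of 5 libraries. fbxb-19, fbxb-66, fbxb-41, fbxc-51 and fbxc-25 are highest in the double strain, fbxb-7 and fbxc-43 have their lowest mean in N2, and fbxc-50 overlaps across genotypes.

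With egl-6 lost in both groups, most members were higher with the array, whereas both family medians were below 0 for the array against N2. In the double strain against egl-6(lof), 5 FBXB members (fbxb-7, fbxb-16, fbxb-49, fbxb-61 and fbxb-97) and 3 FBXC members (fbxc-21, fbxc-39 and fbxc-43) rose and 0 fell, where 14.4% of all genes changed, 6.02% rose and 8.38% fell. At 5 of 92 the FBXB share that rose was near that of all genes. The medians were 0.349 for FBXB, with 84 of 92 higher, and 0.334 for FBXC, with 27 of 30 higher, against 0.02 and 55.7% for all genes. The double strain lay wholly above egl-6(lof) for 10 FBXB and 4 FBXC members, against 3.35% of all genes.

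fbxb-7 was at 5.87, 6.32, 8.47, 6.86 and 7.15 CPM in egl-6(lof) and at 10.4, 12.0, 12.4, 10.1 and 11.1 CPM in the double strain. The groups did not overlap, and the log2 change was 0.69 (SE 0.126, adjusted p = 0.000597), kept in all 30 fits. fbxb-97 was at 1.10, 1.18, 1.00, 1.01 and 1.03 CPM in egl-6(lof) and 1.37, 1.56, 1.71, 1.56 and 1.42 CPM with the array, again without overlap. Its log2 change was 0.51 (SE 0.116, adjusted p = 0.00354), and unlike most members it had its lowest mean in egl-6(lof).

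fbxc-43 rose further, to 3.30, 3.07, 2.68, 2.74 and 2.69 CPM, above every egl-6(lof) library, with a log2 change of 0.43 (SE 0.120, adjusted p = 0.0148). It lost the call without replicate 1 or 2 of every genotype, at adjusted p of 0.0881 and 0.0572. The remaining calls were fbxb-16 at a log2 change of 1.00 (adjusted p = 0.0118), fbxb-49 at 0.66 (0.0195), fbxc-21 at 0.74 (0.0402), fbxb-61 at 0.71 (0.0482) and fbxc-39 at 0.51 (0.0497). fbxb-16 met the member rule only with its double strain libraries counted, the group in which it was called higher. Of 8 alternative fits, fbxb-61 and fbxc-39 each kept the call in 1. The FBXC count was 1 without egl-6(lof) replicate 1 or 5 or double strain replicate 1 or 2, and the FBXB count was 3 without egl-6(lof) replicate 3.

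Both array comparisons were accompanied by other marker lists. Against egl-6(lof), 15 of 22 larval molting genes rose with a median log2 change of 1.11, 36 of 38 sperm genes fell with a median of -3.45, and 8 of 11 body wall muscle genes fell with a median of -0.546. The sperm score of the batch 1 library was 1.19 in egl-6(lof) and 1.04 in the double strain, and the batch 2 means were 2.06 and -1.73. Summed levels in egl-6(lof) and the double strain were 81.2 to 100.05 and 80.4 to 286 CPM for molting genes, 107 to 241 and 13.5 to 94.7 CPM for sperm genes, and 4571 to 5877 and 2637 to 3744.5 CPM for muscle genes. Against N2, 12 molting genes rose and 5 muscle genes fell in flp-17oe, with summed levels of 71.3 to 85.2 and 79.7 to 163 CPM, and 4368 to 5548.5 and 3428 to 3916.5 CPM. Of 16 intracellular pathogen response genes tested, 6 rose against N2 (median 0.494) and 7 against egl-6(lof) (median 0.643), with pals-10 and pals-12 at 0 in every library. Their summed level was 37.8 to 46.5 CPM in N2 against 42.1 to 64.1 with the array, and 39.4 to 44.0 CPM in egl-6(lof) against 51.5 to 64.7 in the double strain. Of 10 neuronal genes, 3 rose against N2 (median 0.392) and 1 against egl-6(lof) (median 0.227). Their summed level was 266 to 286 CPM in N2 against 290.0 to 311 with the array, and 252 to 273 CPM in egl-6(lof) against 273 to 328 in the double strain. Of 12 intestinal genes, 1 rose against N2 and 2 fell against egl-6(lof). Early zygotic genes changed in both, with 5 of 31 higher against egl-6(lof) and 2 higher and 1 lower against N2. The part of these lists in the F-box results was not tested. The 3 comparisons with N2 share its libraries, and the 2 with the double strain share that group.

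The difference between the effects of egl-6 loss with and without the array was tested as an interaction. edgeR called 0 FBXB and 0 FBXC members, where 0.0888% of all genes passed, and DESeq2 also called 0. At an unadjusted p under 0.05 edgeR had 21 FBXB members higher and 0 lower, and 5 FBXC members higher and 1 lower, against 2.26% of all genes higher and 5.08% lower. The member with the smallest p was fbxb-19, with an interaction of 1.65 on the log2 scale (SE 0.425, adjusted p = 0.298). The family medians were 0.532 for FBXB and 0.163 for FBXC. Among members under 1 CPM they were 0.540 and 0.611, and all genes at that level had -0.127. An effect of egl-6 loss that is larger in array animals was therefore not shown for any single member.

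Related gene families and the SCF parts were counted in the same way. On loss of egl-6 in array animals 1.39% of all genes changed. Of 108 tested genes of FBXA, another F-box family, 2 rose and 1 fell there, with a median log2 change of 0.024. Of 58 MATH and BATH domain genes 5 rose and 0 fell, with a median of 0.107 and 44 of 58 higher. At an unadjusted p under 0.05, 12 MATH and BATH genes were higher and 0 lower, against 6.84% and 3.48% of all genes. With the array against N2, where 6.96% of all genes changed, 10 FBXA genes rose and 2 fell (median 0.212). In that comparison 5 MATH and BATH genes rose (median 0.075). Against egl-6(lof) the double strain had 14.4% of all genes changed and 6.02% higher. Of FBXA genes 14 rose and 3 fell (median 0.185, 86 of 108 higher), and 11 MATH and BATH genes rose (median 0.092). Of 33 genes for SCF and cullin ligase parts, 0 passed edgeR in the double strain against flp-17oe. At an unadjusted p under 0.05, 8 of them were higher and 0 lower, against 6.84% and 3.48% of all genes. The smallest p there were those of the SKP1-like genes skr-10 and skr-9. Their log2 changes were 0.97 (SE 0.248, adjusted p = 0.05002, edgeR) and 0.94 (SE 0.244, adjusted p = 0.0577). In the array comparisons the SKP1-like gene skr-5 rose by a log2 change of 1.53 against N2 (SE 0.306, adjusted p = 0.00264) and of 1.59 with egl-6 lost (SE 0.289, adjusted p = 0.000596). skr-4, another SKP1-like gene, rose by 0.60 in the second (SE 0.128, adjusted p = 0.00219).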

How the data were processed

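Poly(A)-selected RNA of whole animals had been sequenced on Illumina instruments as paired reads. The authors deposited 1 table of whole-number counts per gene for the 25 libraries. Reads were aligned with STAR 2.7.11b to ce11, per the submitters' processing notes. The counting program, its annotation, its strand setting and its treatment of reads with several matches are not given in the sources used. Every column belonged to a labelled sample, and no pair of replicates agreed within sampling noise (lowest chi-square per gene 5.70).

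Members and gene lists were chosen with earlier results of these data known. The counts of all genes were fitted together with edgeR 4.0.16 (R 4.3.3, limma 3.58.1), using TMM scaling, the default low-count filter by genotype (minimum count 10, minimum total 15), robust quasi-likelihood fits with genotype and batch as terms, and Benjamini-Hochberg adjustment over 14634 genes. The filter removed 1 member. A call is an adjusted p under 0.05. CPM used the TMM library sizes, and scores used log2 CPM with a prior count of 2. Intervals are the fitted change ± 2.09 SE, for 19 residual degrees of freedom. The fit was checked on simulated counts. Alternatives were DESeq2 1.42.0, its size factors, 2 other count filters, no batch term, a replicate block, the compared genotypes alone, batch 2 alone, and libraries left out.

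Genes named are those called in a comparison, the 3 highest per family by length-scaled level, and the smallest p per family and comparison, and members were given by counts where the test of any difference named many. fbxb-88, and fbxc-44 in the comparison of egl-6(lof) with N2, were named after their values were seen. Splits by level and by chromosome are descriptions. Same-numbered libraries of flp-17oe and the double strain deviated together from their group means (correlations 0.133 to 0.573 over genes, 8 of 10 libraries best with their own number). Those of N2 and flp-17oe also did, at 0.0794 to 0.656, with 6 of 10 best with their own number. For flp-17(lof) and egl-6(lof) the values were -0.134 to 0.34 and 7 of 10. The main fit has no term for replicate number. Protein and promoter sequences were not used here. Counts per library give low members a precision limited by counting error.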

Additional observations from a re-analysis of the deposited data

Results flagged for a closer look

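Of 150 groups of 5 libraries examined, 6 held a library whose gap to the next exceeded Dixon's critical value, and chance gives about 1 in 20. The FBXB score of double strain replicate 1, the batch 1 library, was the lowest of its group at 0.272, where the next was 0.516. fbxb-41 was highest in flp-17oe replicate 2 at 1.38 CPM, where the next was 0.839. fbxb-116 was highest in double strain replicate 3 at 0.525 CPM, next 0.350. fbxc-21 was highest in double strain replicate 4 at 1.28 CPM, next 1.03. fbxc-25 was highest in N2 replicate 2 at 1.11 CPM, next 0.688. fbxb-18 was highest in egl-6(lof) replicate 1 at 0.464 CPM, next 0.351.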

How the results depend on the processing

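No called result changed sign under any alternative run. The FBXC median in flp-17oe against N2, which has no test, went from -0.094 to 0.054 in batch 2 alone or without flp-17oe replicate 1 and to 0.021 without N2 replicate 2. In the double strain against flp-17oe, the FBXB count of 17 was 11 with no count filter and 10 with the compared genotypes alone. It was 19 with the replicate block, which takes up the pairing of these genotypes by number that the main fit leaves out. The FBXC count of 2 was 7 by DESeq2, 4 with the replicate block, and 1 with no batch term, with the compared genotypes alone or in batch 2 alone. Against egl-6(lof), the FBXB count of 5 was 3 with the stricter count filter and the FBXC count of 3 was 1 with no count filter, no batch term or batch 2 alone. In flp-17oe against N2, the FBXB count of 3 was 1 in batch 2 alone and the FBXC count of 2 was 1 with no count filter or the compared genotypes alone. In egl-6(lof) against N2, the FBXB count of 0 was 2 in batch 2 alone and the FBXC count of 1 was 0 with the compared genotypes alone. In flp-17(lof) against N2, the FBXB count of 0 was 1 with the replicate block (fbxb-41). For that pair of genotypes and the others apart from flp-17oe and the double strain, the block moved no other count by over 1.5 times. In these pairs 1 to 7 of 10 libraries correlated best with their own number. With the block, flp-17oe against N2 had 4 FBXB and 2 FBXC calls. With members of at least 1 CPM only, the FBXB score of egl-6(lof) was 0.043, and the FBXC scores of flp-17(lof) and the double strain were -0.194 and 0.235. The cause was not tested.

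Leaving out a library or a replicate number gave these ranges for FBXB and FBXC counts: 0 to 1 and 0 to 0 in flp-17(lof) against N2; 0 to 2 and 0 to 1 in egl-6(lof) against N2; 0 to 4 and 1 to 3 in flp-17oe against N2; 0 to 21 and 0 to 6 in the double strain against flp-17oe; 2 to 7 and 1 to 4 against egl-6(lof); and 21 to 51 and 5 to 17 for any difference. The FBXC interaction median ran from 0.111 to 0.354. With 65 FBXB members under a median of 30 counts, depth limits single-gene calls in that family.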
